A study of Homo sapiens with 12 samples.

Results

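RNA-seq data from 5 groups of cells were used to follow 5 genes, BCHE, SH3BGRL, DAPK1, S1PR3 and ZNF518B, that lost all their reads in a taxane-resistant derivative of Du145 cells. They are 5 of the 60616 genes in each count table. The genes were chosen by their measured values, 0 counts in both libraries of at least one resistant line while expressed in the parental cells, so the loss itself and the levels in the lines are a description and carry no test. Silent or silenced is used here for 0 counts and names no mechanism. Du145 is an established human prostate carcinoma line. The 5 groups were untreated parental cells (Du145-P, 2 libraries), passaged alongside the selection. Du145-DtxR and Du145-CbzR (2 libraries each) were derived from them by 72 h exposures to docetaxel or cabazitaxel, microtubule-stabilizing taxanes, at doses that doubled from 1 nM to 125 nM. The other 2 groups were Du145-DtxR cells given control siRNA (siControl, 3 libraries) or siRNA against BRPF1, a chromatin reader (siBRPF1, 3 libraries), for 24 h, with RNA isolated 48 h after the siRNA was removed. All groups share the parental line, the medium and the serum. Each resistant line is 1 selected derivative, so the replicate libraries of a line show how that derivative varied and not how independently selected lines would, and the study calls the libraries biological replicates without saying how they were cultured.

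As background, a gene can disappear from a cancer line by loss of its DNA, by methylation of CpG sites and closed chromatin at its promoter, or by loss of the factors that drive it, and RNA counts alone do not separate these. BCHE encodes butyrylcholinesterase, a secreted enzyme that hydrolyses choline esters and is made mainly by the liver. SH3BGRL encodes a small adaptor with a thioredoxin fold. DAPK1 is a calcium/calmodulin-dependent kinase that promotes apoptosis and autophagy and is often methylated in tumours. S1PR3 is a G protein-coupled receptor for sphingosine-1-phosphate, a lipid signal for migration and survival. ZNF518B is a zinc finger protein that has been reported to bind the histone methyltransferases G9A and EZH2.

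The sequences just before RefSeq transcript starts of these genes are shown because they differ in CpG content, CpG being the pair of bases at which human DNA is methylated. Each run is the 200 bases upstream of the start of a RefSeq transcript on GRCh38.p14, written 5′ to 3′ along the gene's own strand, with every CG in capitals. BCHE is at chr3:165837424-165837623 (minus strand), SH3BGRL at chrX:81201902-81202101 (plus), DAPK1 at chr9:87497667-87497866 (plus) and ZNF518B at chr4:10457427-10457626 (minus).
BCHE: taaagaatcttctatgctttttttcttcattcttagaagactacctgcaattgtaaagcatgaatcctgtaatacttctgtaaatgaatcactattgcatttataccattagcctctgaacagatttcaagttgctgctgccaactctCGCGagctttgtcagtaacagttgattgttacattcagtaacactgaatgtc
SH3BGRL: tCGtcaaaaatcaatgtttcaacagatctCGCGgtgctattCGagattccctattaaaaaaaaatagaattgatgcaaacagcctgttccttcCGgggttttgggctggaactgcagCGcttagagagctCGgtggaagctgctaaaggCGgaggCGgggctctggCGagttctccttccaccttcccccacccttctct
DAPK1: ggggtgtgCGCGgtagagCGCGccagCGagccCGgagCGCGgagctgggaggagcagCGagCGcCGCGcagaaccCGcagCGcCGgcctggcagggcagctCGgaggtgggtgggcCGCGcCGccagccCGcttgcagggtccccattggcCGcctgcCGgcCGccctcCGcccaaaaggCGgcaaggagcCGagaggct
ZNF518B: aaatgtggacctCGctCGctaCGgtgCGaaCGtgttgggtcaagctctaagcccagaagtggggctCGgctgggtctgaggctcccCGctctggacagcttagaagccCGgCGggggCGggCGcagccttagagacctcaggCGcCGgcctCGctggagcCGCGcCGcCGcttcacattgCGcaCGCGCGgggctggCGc
The upstream bases held 2 CpGs in BCHE, 10 in SH3BGRL, 26 in DAPK1 and 23 in ZNF518B.

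Over the full window of 300 bases (250 before and 50 after the start), BCHE had 2 CpGs, and 11.0% of the 35116 RefSeq promoters had fewer. DAPK1 had 37 CpGs in the window of its first listed promoter and 33 in that of its second, more than 88.7% and 82.8% of promoters. ZNF518B had 35 CpGs, more than 85.9%. SH3BGRL lay near the middle with 12 CpGs (46.9% had fewer), against a median of 14 over all promoters. The 2 promoters of S1PR3, which are not printed, had 17 and 32 CpGs (54.0% and 81.1% had fewer). The silenced genes therefore included both CpG-poor and CpG-rich promoters. The letters TATAAA, searched on both strands, occurred in BCHE alone among the 5 genes and in 11.5% of all promoters. GGGCGG, the core of a GC box, on either strand occurred at DAPK1 (both windows), ZNF518B and the second S1PR3 promoter, and in 45.0% of all promoters. The match is to letters only and is not evidence of a bound factor.

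The genes lie on 4 chromosomes. In GENCODE 44 (GRCh38), BCHE (ENSG00000114200) spans chromosome 3 from 165772904 to 165837462 on the minus strand. SH3BGRL (ENSG00000131171) spans chromosome X from 81202102 to 81298547 on the plus strand. DAPK1 (ENSG00000196730) spans chromosome 9 from 87497228 to 87708634 on the plus strand, and S1PR3 (ENSG00000213694) lies 1282 kb further along the same strand, from 88990863 to 89005155. ZNF518B (ENSG00000178163) spans chromosome 4 from 10439880 to 10457426 on the minus strand. RefSeq and GENCODE starts can differ: the printed run of DAPK1 lies inside its GENCODE span, and that of BCHE lies partly inside its own. Counts are per gene, over all exons of its transcripts.

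The 3 lines had between 27512422 and 30593573 estimated counts per library in the first, resistance experiment and between 16667822 and 17306275 in the siRNA experiment. The experiments were fitted separately. Levels are given in CPM, counts divided by the library's total after TMM scaling and expressed per 1000000, which are not corrected for gene length and so are compared only within a gene. The epithelial markers KRT8, KRT18, KRT19 and EPCAM were above 1 CPM in all groups, but the markers did not all keep their level. CDH1 was 36.9 CPM in Du145-P, 1.40 CPM in Du145-DtxR and 0.715 CPM in Du145-CbzR. It was 3.59 CPM in siControl and 0.508 CPM in siBRPF1. KRT19 was 33.2 CPM in Du145-P, 178 CPM in Du145-DtxR and 6.37 CPM in Du145-CbzR. KRT8, KRT18 and EPCAM stayed within a log2 fold change of 1 either way in every comparison. Markers of leukocytes, endothelium and liver (PTPRC, CD3E, PECAM1, VWF, ALB) had at most 8 counts in any library, and of the 7 markers of other cell types only the collagen genes COL1A1 and COL3A1 reached 1 CPM, at up to 11.5 and 17.9 CPM. BRPF1, the siRNA target, was 30.3 ± 0.813 CPM (SD, n = 3) in siControl and 8.61 ± 0.386 CPM (SD, n = 3) in siBRPF1, a log2 fold change of -1.82 (edgeR quasi-likelihood test, adjusted p = 1.79e-06).

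Among the chosen genes, BCHE alone was lost from both lines. It had 3320 and 2856 counts in the parental libraries and 0 in each of the 4 libraries of the resistant lines. The parental level of 101.3 ± 9.25 CPM (SD, n = 2) was at least 1833-fold above the floor of 3 counts over both Du145-DtxR libraries (0.0553 CPM) and at least 2079-fold above that of Du145-CbzR (0.0487 CPM). These floors cover counting error only. The 6 siRNA libraries of Du145-DtxR, which were not used to choose the gene, had 0 counts as well, both with siControl and with siBRPF1. No library of a resistant line therefore held a single BCHE count.

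SH3BGRL was silent in the docetaxel line and kept its counts in the cabazitaxel line. It had 1666 and 1543 counts (Du145-P), 0 and 0 (Du145-DtxR) and 2667 and 2685 (Du145-CbzR). Du145-P had 52.7 ± 2.07 CPM (SD, n = 2) and Du145-CbzR 86.9 CPM, 1.65-fold as much and short of the fold limit (log2 fold change 0.72, given without a test). In Du145-DtxR it was at least 953-fold lower than in Du145-P. In the siRNA libraries, siControl had 0, 0 and 1 counts and siBRPF1 had 0, 0 and 0.

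DAPK1 and S1PR3, the pair on chromosome 9, followed the same course. DAPK1 had 818 and 811 counts (Du145-P), 0 and 0 (Du145-DtxR) and 599 and 664 (Du145-CbzR). Its parental 26.7 ± 0.238 CPM (SD, n = 2) was at least 484-fold above the Du145-DtxR floor, and Du145-CbzR kept 20.5 CPM, 0.767 of the parental level. S1PR3 had 447 and 411 counts (Du145-P), 0 and 0 (Du145-DtxR) and 343 and 354 (Du145-CbzR). The parental 14.1 ± 0.625 CPM (SD, n = 2) was at least 255-fold above the Du145-DtxR floor, and Du145-CbzR had 11.3 CPM, 0.804 of the parental level. For both genes the Du145-CbzR libraries lay below both parental libraries. How often this order occurs over all genes was not counted. Small differences between these groups were common: with no fold limit, 9243 of 18218 tested genes had an adjusted p under 0.05 (edgeR quasi-likelihood test). In such bulk RNA, fewer expressing cells and less RNA per cell cannot be told apart. The siRNA libraries held traces: DAPK1 had 0, 1 and 1 counts with siControl and 0, 0 and 0 with siBRPF1, and S1PR3 had 1, 1 and 1 with siControl and 1, 1 and 0 with siBRPF1. Over those 6 libraries this came to 2 counts of DAPK1 and 5 of S1PR3.

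ZNF518B showed the opposite line. It had 692 and 612 counts (Du145-P), 744 and 744 (Du145-DtxR) and 0 and 0 (Du145-CbzR). Du145-P had 21.4 ± 1.54 CPM (SD, n = 2) and Du145-DtxR 27.4 CPM, 1.28-fold as much. The parental level was at least 439-fold above the Du145-CbzR floor. Both Du145-DtxR libraries lay above both parental ones. Small differences were common here too: with no fold limit, 11486 of 18218 tested genes had an adjusted p under 0.05 (edgeR quasi-likelihood test). All siRNA libraries were of Du145-DtxR, so the loss of ZNF518B rests on 2 libraries.

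**Figure D1:**
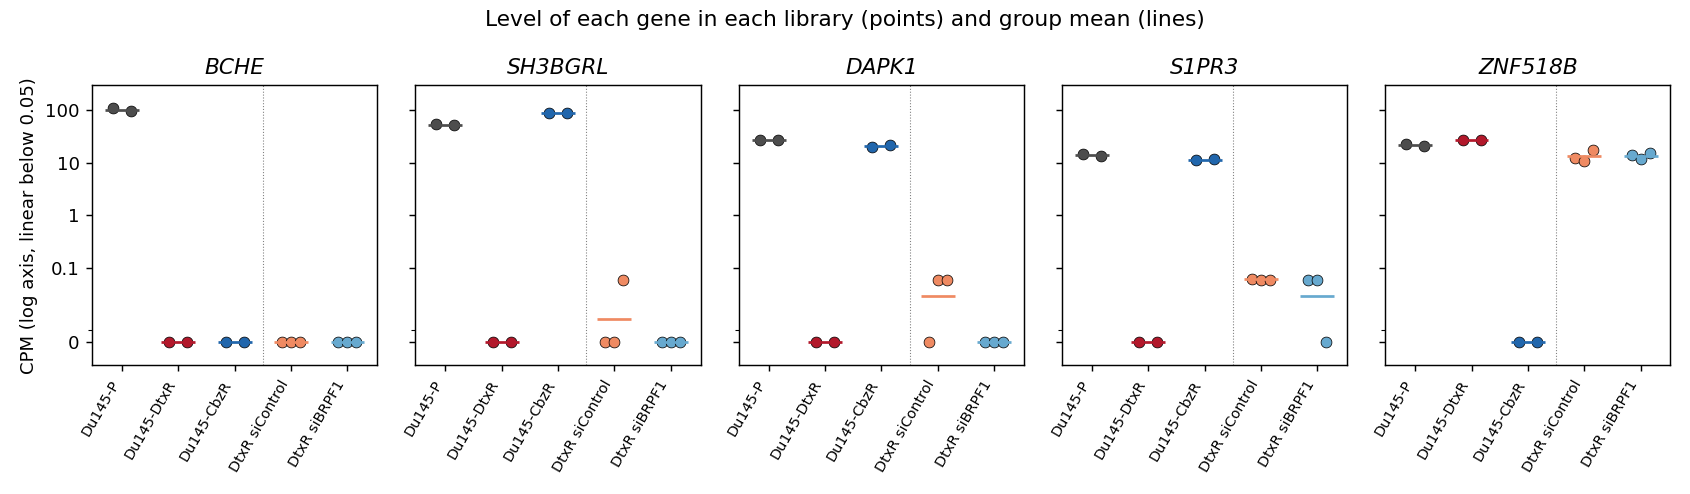
Level of BCHE, SH3BGRL, DAPK1, S1PR3 and ZNF518B in CPM in each of the 12 libraries (points), with group means as lines, on a log axis that is linear below 0.05. Du145-P is above 10 CPM for every gene; BCHE sits at 0 in every library of both resistant lines, SH3BGRL, DAPK1 and S1PR3 sit at 0 in Du145-DtxR only among the 3 lines, and ZNF518B at 0 in Du145-CbzR only. The dotted line separates the resistance from the siRNA experiment.

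Knockdown of BRPF1 was the comparison that the choice of genes did not use, and it gave no detectable return of the genes that were silent in Du145-DtxR. BCHE, SH3BGRL, DAPK1 and S1PR3 had too few counts in the siRNA experiment to be tested. Their levels in both siRNA groups were at or under the floor of 3 counts over a group (0.0600 CPM for siControl, 0.0581 CPM for siBRPF1), so no fold is given. ZNF518B, the 1 gene of the 5 that was tested there, was expressed in Du145-DtxR, so its test does not concern the silent genes. It had 193, 184 and 297 counts with siControl and 243, 192 and 265 with siBRPF1. The groups overlapped. The level was 13.4 ± 3.49 CPM (SD, n = 3) with siControl and 13.5 ± 1.88 CPM (SD, n = 3) with siBRPF1. The log2 fold change was 0.01 (standard error 0.17, 95% interval -0.37 to 0.39, edgeR quasi-likelihood test, adjusted p = 0.974). In the whole experiment 0.49% of the 15704 tested genes were called higher and 3.34% lower, where a call needed both an adjusted p under 0.05 and a log2 fold change beyond 1 or -1.

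Complete loss from this level was uncommon. Of the 15020 genes whose parental mean was at least 1 CPM, 63 (0.419%) had 0 counts in both Du145-DtxR libraries. In both Du145-CbzR libraries 31 (0.206%) had 0 counts, and 10 genes were in both sets. Some of these had 0 counts in a parental library too, so a 0 in a line is not a clear loss for them. UTP14C had 0 and 234 counts in Du145-P. GDF1 and ENSG00000279186, which were in both sets, had 209 and 0 and 0 and 108. The reverse, 0 counts in Du145-P with at least 1 CPM in the line, held for 8 genes in Du145-DtxR and 7 in Du145-CbzR. Ordered by parental CPM, BCHE, SH3BGRL, DAPK1 and S1PR3 were the first 4 of the 63 genes, and BCHE and ZNF518B the first 2 of the 31. The next in Du145-DtxR was the lncRNA ENSG00000263244 at 12.1 CPM in Du145-P. The next in Du145-CbzR were TINAGL1, a matrix glycoprotein, at 20.0 CPM, DNAJC15, a mitochondrial co-chaperone, at 5.73 CPM, and ZNF677 at 5.25 CPM. Just outside the rule in Du145-DtxR were LGSN with 0 and 1 counts, BMP7 with 0 and 1, and TSPAN18 with 1 and 2. Just outside it in Du145-CbzR were SLFN11 with 0 and 1 counts, BRDT with 2 and 0, and TXNIP with 0 and 1. The gap between inside and outside was thus 1 count.

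The siRNA libraries show how far a 0 in Du145-DtxR carried over to separate libraries of the same line. Of the 63 genes, 24 had 0 counts in all 6 siRNA libraries, 12 had 1 to 3 counts in total and 27 had more than 3. BCHE was among the 24, SH3BGRL and DAPK1 among the 12, and S1PR3 among the 27 with its 5 counts. Only 3 of the 63 genes reached a mean of 1 CPM, and the highest was UTP14C with 1022 counts, a gene with a near-identical copy whose reads are hard to assign. The 31 genes at 0 in Du145-CbzR give the contrast of another line: 22 had more than 3 counts in the siRNA libraries of Du145-DtxR and 15 reached a mean of 1 CPM, ZNF518B among them.

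**Figure D2:**
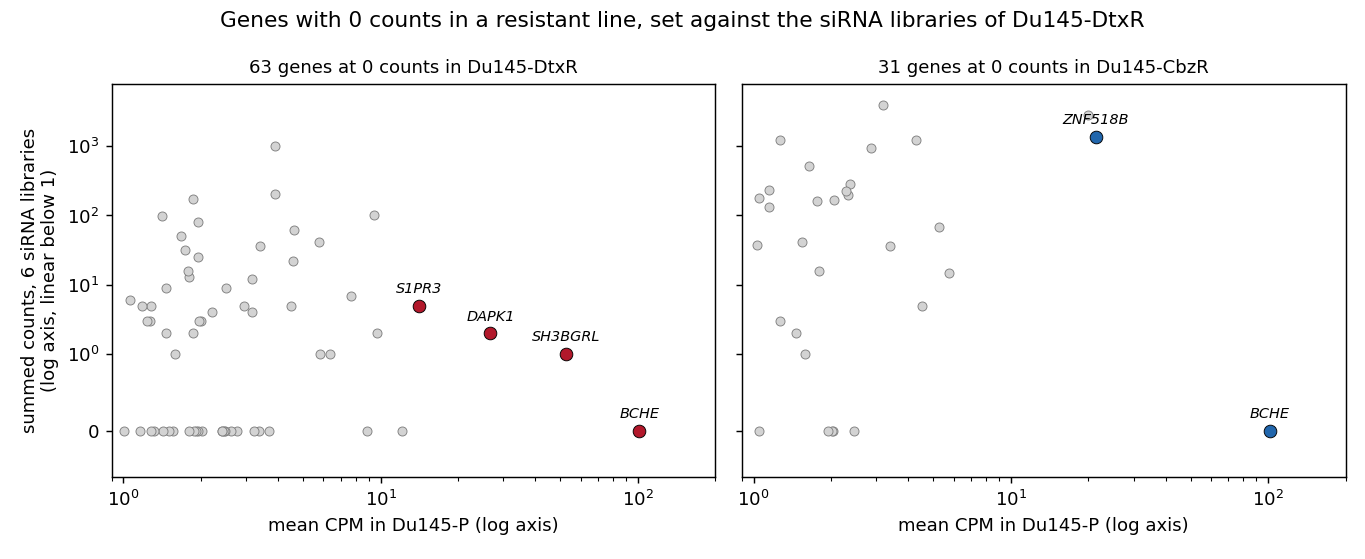
Genes with 0 counts in both libraries of Du145-DtxR (left, 63 genes) or Du145-CbzR (right, 31 genes), by mean CPM in Du145-P (x axis, log) and summed counts in the 6 siRNA libraries of Du145-DtxR (y axis, log, linear below 1). Coloured points are the named genes: BCHE at 0 siRNA counts, SH3BGRL at 1, DAPK1 at 2 and S1PR3 at 5 lie to the right of the other genes in the left panel.

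The genes around the silenced loci were examined next. Within 1 Mb of the 5 genes, 18 other genes were tested. In Du145-DtxR, 8 were lower and 1 was higher, where 13.8% of all 18218 tested genes were called lower and 6.62% higher. In Du145-CbzR, 5 were lower and 2 higher, against 7.88% and 3.74% of all genes. The median log2 fold change of the 18 was -0.49 in Du145-DtxR and -0.58 in Du145-CbzR, against -0.02 and -0.01 over all tested genes. The comparisons share the Du145-P libraries. Neighbouring genes are not independent of each other, and 12 of the 18 lie around DAPK1 and S1PR3.

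At SH3BGRL the loss extended to the gene with which it shares a start region. HMGN5, which encodes a nucleosome-binding protein, is transcribed away from SH3BGRL on the opposite strand, with 188 bases between the starts, and their promoter windows of 300 bases share 288 bases. The run of 200 SH3BGRL bases shown above lies wholly within the HMGN5 window, read from the other strand. HMGN5 had 198 and 173 counts (Du145-P), 1 and 1 (Du145-DtxR) and 542 and 522 (Du145-CbzR). The parental level was 165-fold that of Du145-DtxR (95% counting interval 45.4 to 1369), and the fitted log2 fold change in Du145-CbzR was 1.51 (edgeR, standard error 0.11, adjusted p = 4.36e-07). HMGN5 was thus reduced to a trace where SH3BGRL was at 0, and passed the call for higher in Du145-CbzR, where SH3BGRL was 1.65-fold the parental level. The next expressed gene, BRWD3, a bromodomain protein gene 392 kb away, was not called in either line (log2 fold changes of -0.30 and -0.05).

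Around DAPK1 and S1PR3, 7 of 12 tested genes were lower in Du145-DtxR and 5 in Du145-CbzR, with none higher in either line by the same call. CTSL, the lysosomal protease cathepsin L, starts 15 kb after the end of DAPK1. It had 5745 and 5078 counts (Du145-P), 525 and 539 (Du145-DtxR) and 3134 and 2889 (Du145-CbzR). In Du145-DtxR its log2 fold change was -3.18 (edgeR, standard error 0.07, adjusted p = 1.69e-11). In Du145-CbzR it was -0.86, which did not pass the fold limit. CDK20, a cell cycle-related kinase 258 kb away, had 233 and 248 counts (Du145-P), 5 and 1 (Du145-DtxR) and 260 and 247 (Du145-CbzR). The fitted log2 fold change of CDK20 was -6.11 in Du145-DtxR (adjusted p = 7.67e-09) and 0.06 in Du145-CbzR. CDK20 thus repeated the pattern of DAPK1, with a trace in place of a 0. LINC03026, 357 kb from DAPK1, had 19 and 22 counts in Du145-P and 0 and 0 in Du145-DtxR. The parental level was 12.2-fold the Du145-DtxR floor of 3 counts.

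Between and beside these genes, however, lay genes without a call. SPIN1, which encodes a histone methylation reader, lies 680 kb after DAPK1 and 512 kb before S1PR3. It had 4406 and 4239 counts in Du145-P against 3425 and 3497 in Du145-DtxR (log2 fold change -0.15). CKS2, a cyclin-dependent kinase subunit 306 kb beyond S1PR3, had a log2 fold change of 0.08. NXNL2, between SPIN1 and S1PR3, was lower in Du145-DtxR (-2.67, adjusted p = 1.48e-05) and in Du145-CbzR (-1.50, adjusted p = 0.000712; edgeR). SHC3, an adaptor gene whose end lies 616 bases from that of S1PR3, had 15 and 19 counts (Du145-P), 1 and 0 (Du145-DtxR) and 7 and 5 (Du145-CbzR) (log2 fold changes of -4.63 and -1.50 against Du145-P). Further out, ENSG00000285907 and the stress-response gene GADD45G were lower in both lines, the first by log2 fold changes of -4.97 (Du145-DtxR) and -2.59 (Du145-CbzR), the other by -2.16 and -1.03. SECISBP2, needed for selenoprotein synthesis, was called lower only in Du145-CbzR (-1.16, against -0.28 in Du145-DtxR; the difference between the lines was not tested). The Du145-CbzR calls of SHC3 and GADD45G were weak: without any single Du145-P or Du145-CbzR library, SHC3 had an adjusted p of 0.0838 to 0.2 in edgeR, and GADD45G lost its call without Du145-CbzR replicate 1 (0.204), Du145-P replicate 1 (0.0977) or Du145-P replicate 2 (0.146). In DESeq2 they had adjusted p-values of 0.235 and 0.167. The lower genes of this stretch were thus interleaved with genes that kept most of their counts.

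At BCHE the only other tested gene within 1 Mb was LINC01322, a noncoding gene that overlaps BCHE on the opposite strand. It was higher in both resistant lines. LINC01322 had 13 and 16 counts (Du145-P), 59 and 58 (Du145-DtxR) and 496 and 433 (Du145-CbzR). Its log2 fold change was 2.17 in Du145-DtxR (edgeR, adjusted p = 5.87e-06) and 4.97 in Du145-CbzR (adjusted p = 1.68e-09). Whether the counting used strand is not stated, so reads of the overlapping parts may have been shared between the genes, although BCHE was at 0 where LINC01322 was highest. In the siRNA libraries of Du145-DtxR, LINC01322 had 1, 2 and 0 counts with siControl and 2, 2 and 2 with siBRPF1, too few to be tested. Its mean there was 0.0602 CPM with siControl and 0.116 CPM with siBRPF1, against 2.16 CPM in Du145-DtxR and 0.477 CPM in Du145-P. The higher level in Du145-DtxR was thus not seen again in the siRNA libraries of that line.

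At ZNF518B the 2 tested neighbours were called in neither line. WDR1, an actin-disassembly factor 323 kb away, had 5250 and 5201 counts in Du145-CbzR against 6998 and 7103 in Du145-P. Its log2 fold changes were -0.45 there and 0.78 in Du145-DtxR. In the siRNA experiment 10 of the neighbours were tested. Of these, 1 was called higher and 1 lower, against 0.49% and 3.34% of all tested genes. WDR1 was higher with siBRPF1 (195.8 ± 1.62 CPM with siControl and 445 ± 7.45 CPM with siBRPF1, SD, n = 3 each; log2 fold change 1.18, edgeR adjusted p = 6e-06), and SECISBP2 was lower (-1.07, adjusted p = 3.4e-05).

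**Figure D3:**
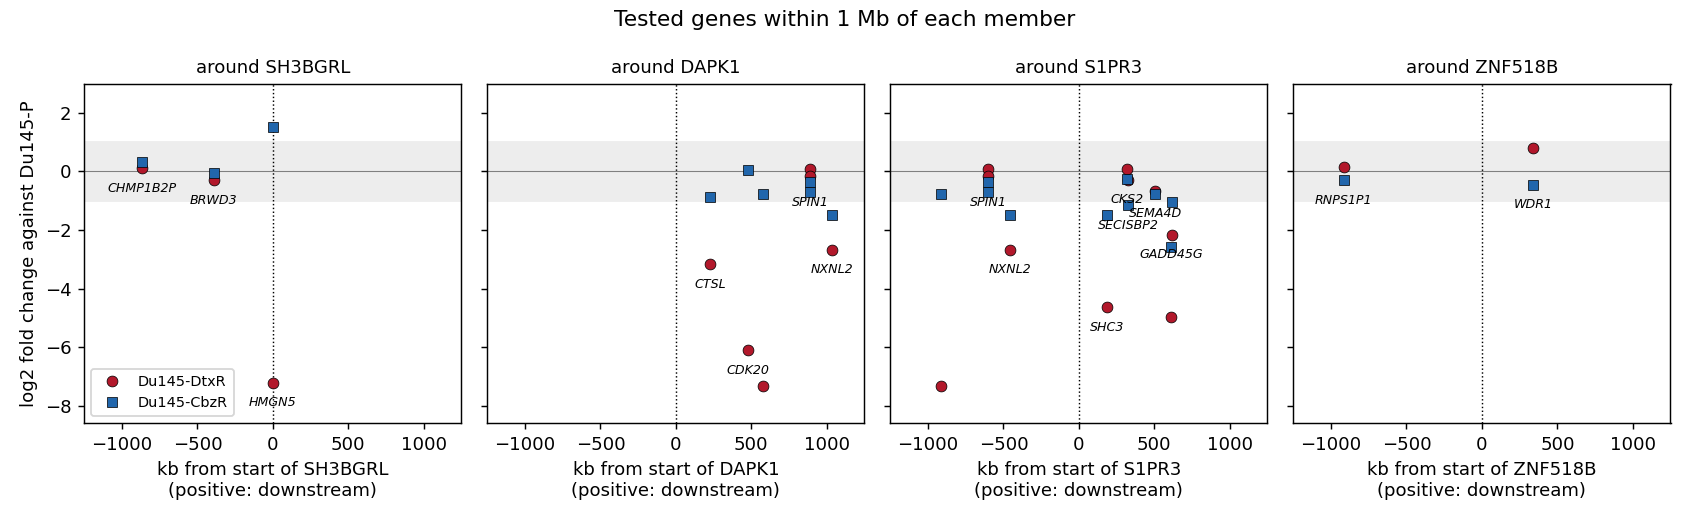
Log2 fold change against Du145-P (y axis) of the tested genes within 1 Mb, by the distance of their start from the start of SH3BGRL, DAPK1, S1PR3 or ZNF518B in kb (x axis, positive downstream), for Du145-DtxR (circles) and Du145-CbzR (squares). The grey band spans -1 to 1; HMGN5, CTSL and CDK20 fall below it in Du145-DtxR, while SPIN1, CKS2 and BRWD3 stay inside. The values of genes with 0 or 1 counts, such as LINC03026, depend on the fit and are no bounds; lncRNAs and genes without a symbol are not labelled.

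Relatives and partners of each gene were then compared, to see whether its pathway moved with it. Of 22 cholinergic genes, 12 were tested. In Du145-DtxR 1 was higher and 3 were lower, in Du145-CbzR 1 was higher and 2 were lower, and with siBRPF1 3 were lower, to be read against the shares of all genes called in each direction given above. ACHE, the acetylcholinesterase gene, had 37 and 31 counts (Du145-P), 39 and 55 (Du145-DtxR) and 36 and 30 (Du145-CbzR), and was not called in either line. PRIMA1, which anchors cholinesterases in the membrane, had 14 and 10 counts in Du145-P and 0 and 0 in Du145-DtxR. The parental level was 7.11-fold the Du145-DtxR floor of 3 counts. In Du145-CbzR PRIMA1 had 63 and 65 counts (log2 fold change 2.39, edgeR adjusted p = 0.000146). RAPH1, an actin regulator whose proline-rich peptides have been found in butyrylcholinesterase tetramers, was higher in Du145-DtxR (log2 fold change 1.53, adjusted p = 4.35e-10). The choline transporter-like gene SLC44A2 was lower in Du145-DtxR (log2 fold change -1.13, adjusted p = 5.6e-09) and with siBRPF1 (-1.09, adjusted p = 1.51e-05).

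The muscarinic receptor CHRM4 was lower in all 3 comparisons, with log2 fold changes of -1.48, -2.23 and -2.08. The call in Du145-DtxR was lost without Du145-DtxR replicate 1 (-1.16, adjusted p = 0.0575, edgeR) and in DESeq2 (adjusted p = 0.0578). LYNX1, a modulator of nicotinic receptors, had 24 and 18 counts in Du145-P and 0 and 0 in Du145-CbzR. The parental level was 14.1-fold the Du145-CbzR floor of 3 counts. The nicotinic subunit CHRNB4 was lower with siBRPF1 (-1.77, adjusted p = 0.0117, edgeR).

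In the list of the SH3BGR family and thioredoxin-fold redox proteins, 9 genes were tested. Du145-DtxR, where SH3BGRL was silent, had 3 of them called higher and 1 lower (6.62% and 13.8% of all genes). In Du145-CbzR or with siBRPF1, 0 were called by edgeR or DESeq2. There 7 and 6 had an unadjusted p under 0.05, and 7 and 5 an adjusted one (edgeR). SH3BGRL2, a paralog, had 348 and 331 counts (Du145-P), 692 and 653 (Du145-DtxR) and 439 and 394 (Du145-CbzR). It was higher in Du145-DtxR (log2 fold change 1.15, standard error 0.08, adjusted p = 1.58e-07, edgeR). SH3BGRL3 had a log2 fold change of 0.86, short of the fold limit. SH3BGR was lower (46 and 64 counts against 25 and 22, log2 fold change -1.06, adjusted p = 0.00928), a call lost without Du145-DtxR replicate 2 (-0.97, adjusted p = 0.0575), without Du145-P replicate 2 (-0.78, adjusted p = 0.1) and in DESeq2 (adjusted p = 0.0529). The glutaredoxin GLRX3 and the mitochondrial thioredoxin TXN2 were higher by 1.12 and 1.08 (log2 fold changes). The median of the 9 genes was 0.86, against -0.02 over all genes.

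Among 15 death-associated kinases and DAPK1 partners, 1 was higher and 2 were lower in Du145-DtxR, close to the 6.62% and 13.8% of all genes, so the list as a whole did not stand apart. In Du145-CbzR 1 was higher and 1 lower (3.74% and 7.88% of all genes), and with siBRPF1 1 was lower (3.34%). STK17A, the apoptosis-inducing kinase DRAK1 of the same kinase family, had 1416 and 1436 counts (Du145-P), 6848 and 6661 (Du145-DtxR) and 1497 and 1496 (Du145-CbzR). It was higher in Du145-DtxR (log2 fold change 2.41, standard error 0.05, adjusted p = 8.57e-12, edgeR). DAPK2 was lower (132 and 136 counts against 57 and 51, log2 fold change -1.14, adjusted p = 0.000127). DAPK3 had a log2 fold change of 0.46 and STK17B one of 0.07, neither past the fold limit. UNC5B, a netrin receptor, was lower in Du145-DtxR (-3.07), in Du145-CbzR (-1.51) and with siBRPF1 (-1.43). MAP1B, a microtubule-associated partner of DAPK1, was higher in Du145-CbzR (1.10, adjusted p = 7.39e-09).

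In the line that lost S1PR3, no other tested gene of the sphingosine-1-phosphate pathway passed the call. In Du145-DtxR 0 of 21 tested genes were called by edgeR or by DESeq2 with the fold limit, although 15 had an unadjusted p under 0.05 and 15 an adjusted one, among them S1PR5 (421 and 382 counts in Du145-P against 187 and 182, log2 fold change -0.95, adjusted p = 3.06e-06) and the sphingosine kinase SPHK1 (0.67, adjusted p = 0.00298). S1PR2 had 181 and 204 counts (Du145-P) and 196 and 155 (Du145-DtxR). In Du145-CbzR, which kept S1PR3, 2 of 21 were higher and 2 lower, against 3.74% and 7.88% of all genes. The transporter SPNS2, which exports the lipid, was higher (29 and 17 counts against 88 and 118, log2 fold change 2.14, adjusted p = 0.000136), as was the G protein subunit GNAI1 (1.57). SGPP2, a phosphatase that degrades the lipid, was lower (-2.06, adjusted p = 3.66e-06), as was GNAI2 (-1.08). With siBRPF1, 0 of 20 were called by either tool, while 8 had an unadjusted p under 0.05 and 5 an adjusted one (edgeR).

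ZNF518A, the nearest relative of ZNF518B, and the genes of the G9A and PRC2 complexes were likewise without a call, 0 of 16 in each of the 3 comparisons by edgeR or DESeq2. At an unadjusted p under 0.05 there were 11 in Du145-DtxR, 10 in Du145-CbzR and 10 with siBRPF1, all short of the fold limit. With an adjusted p under 0.05 (edgeR) there were 11, 10 and 9, so most were small shifts that kept their significance. ZNF518A had 2143 and 1973 counts in Du145-P and 2020 and 1844 in Du145-CbzR, the line without ZNF518B (log2 fold change -0.11). EHMT2, which encodes G9A, had a log2 fold change of 0.16 there. EZH2 was the closest to the limit, with 1083 and 962 counts in Du145-P against 516 and 534 in Du145-CbzR (-0.98, adjusted p = 6.31e-07, edgeR), and 0.60 in Du145-DtxR.

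**Figure D4:**
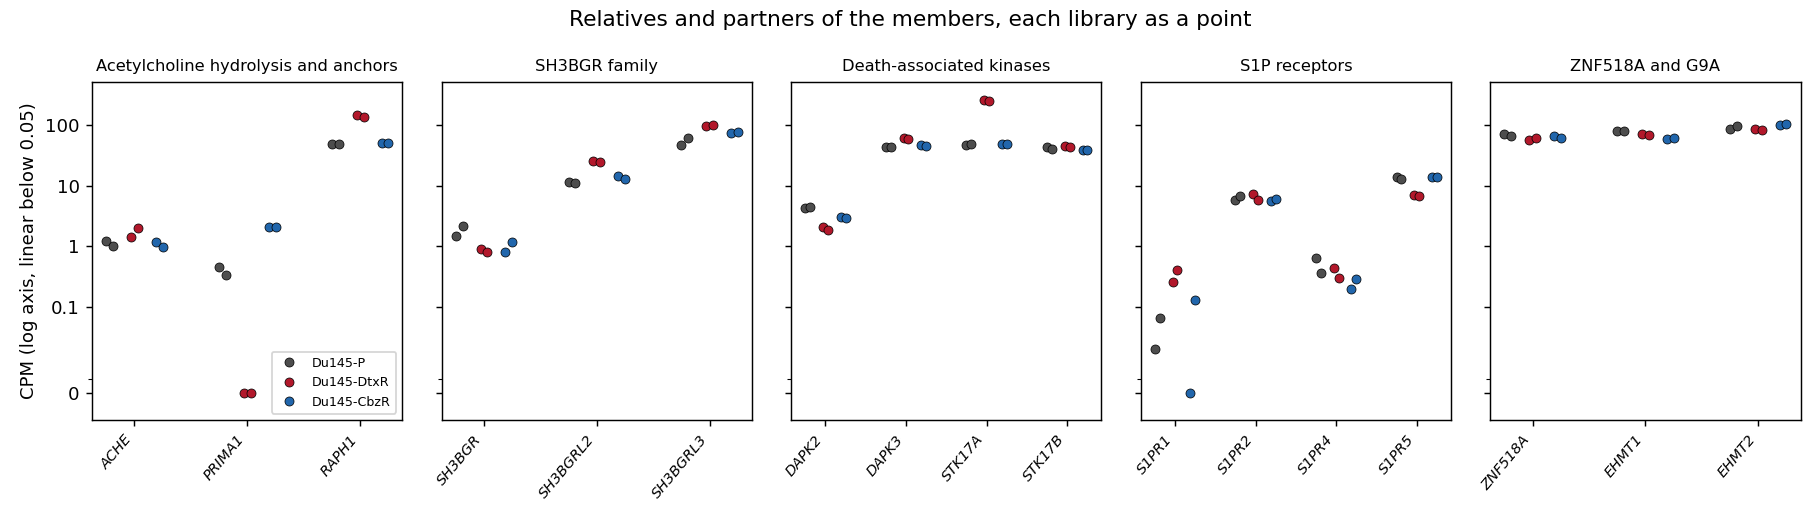
CPM of relatives and partners of the silenced genes in the 6 libraries of the resistance experiment (points, log axis that is linear below 0.05), in black for Du145-P, red for Du145-DtxR and blue for Du145-CbzR. STK17A, RAPH1 and SH3BGRL2 are raised in Du145-DtxR, PRIMA1 is at 0 in Du145-DtxR and raised in Du145-CbzR, and ZNF518A, EHMT1 and EHMT2 stay within the fold limit.

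The genes most like each silenced gene were found by the Euclidean distance of log2(CPM + 0.5) over the 6 resistance libraries, among 18217 other genes. This measure uses the level as well as the pattern, is a description, and its points share 3 lines. The nearest to BCHE was LGSN at a distance of 3.70, so no gene was close, followed by CDH1 and BMP7. For SH3BGRL they were the glucose transporter SLC2A3 (1.84), TP53I11 and NDRG1, and for DAPK1 the ubiquitin ligase RNF144A (0.937), PLEKHG4B and TP53I11. For S1PR3 they were KIF26A (0.680), the collagen gene COL4A3 and the GABA transporter SLC6A11. SLC6A11 had 272 and 267 counts (Du145-P), 0 and 0 (Du145-DtxR) and 252 and 272 (Du145-CbzR). For ZNF518B they were the testis bromodomain gene BRDT (0.647), SLFN11, which sensitizes cells to replication stress, and CDA. BRDT had 542 and 543 counts (Du145-P), 562 and 606 (Du145-DtxR) and 2 and 0 (Du145-CbzR).

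The likeness did not always hold in the siRNA libraries of Du145-DtxR, where BCHE stayed at 0, SH3BGRL, DAPK1 and S1PR3 had 1, 2 and 5 counts over the 6 libraries, and ZNF518B had counts in all of them. RNF144A, the nearest to DAPK1, had 0 counts in all 6 of them, and SLC6A11 had 0 too. TP53I11, with 7 and 6 counts in Du145-DtxR, had 1488 counts over the siControl libraries and 1223 over the siBRPF1 libraries. PLEKHG4B went from 14 and 10 counts in Du145-DtxR to 524 and 551 over the siRNA groups. Each siRNA library was shallower than each Du145-DtxR library of the resistance experiment, and the cause of these higher counts was not tested. The transfection and plating went with the experiment, and their part in these differences cannot be told apart.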

How the data were processed

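RNA of 12 libraries in 2 experiments was sequenced. The authors mapped paired-end reads to GENCODE transcripts of GRCh38 (STAR), estimated abundance with Salmon, aggregated it by gene (tximport) and ran DESeq2 (versions not given in the sources used here). The deposited sheets are named for TPM, but they hold estimated counts: column totals differ, and 58.4% and 62.8% of values above 0 are whole. Estimated counts were rounded, the 44 pseudoautosomal Y rows of each table were added to X, and genes were filtered with filterByExpr, leaving 18218 and 15704 genes. The 6 libraries of each experiment entered 1 model with TMM scaling in edgeR 4.0.16 (R 4.3.3), tested by quasi-likelihood, with Benjamini-Hochberg adjustment over all tested genes. Standard errors are the log2 fold change over the square root of F and are too small for genes with few counts.

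The genes and gene lists were chosen with earlier results of these data known. Genes named are the 5 genes, BRPF1, per list up to 4 called members with the smallest adjusted p, all called neighbours within 1 Mb, the nearest neighbour of at least 1 CPM on each side, the 3 most alike genes, and the 5 genes of highest parental level at 0 in each line; relatives of the 5 genes, the genes just outside the 0-count rule and further genes between DAPK1 and S1PR3 were named after their values were seen. Expressed means a mean of at least 1 CPM in Du145-P. Floors are 3 counts over a group, and counting intervals are at 95%. Both cover counting error only. A fold over a floor takes the parental level as exact, so it is no strict bound where parental counts are few. Coordinates are GENCODE 44, sequences RefSeq. The fitting code was run on simulated counts with planted changes, which checks the code only. Their fixed spread was smaller than that fitted in the siRNA experiment, and no limit was set on false calls. Alternatives were DESeq2 1.42.0, its size factors, other filters, no fold limit, the groups compared alone, replicate number as a block, other limits for expression and distance, and each library left out. DNA methylation and copy number were not analysed here. A list of lineage markers is not reported here.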

Additional observations from a re-analysis of the deposited data

Results flagged for a closer look

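The following genes were higher than in Du145-P in both libraries of one resistant line and lower in both libraries of the other, and the difference between the lines was not tested. SH3BGRL and ZNF518B are among the silenced genes, which were selected on these values: the first was 1.65-fold the parental level in Du145-CbzR and at 0 counts in Du145-DtxR, and the other was 1.28-fold in Du145-DtxR and at 0 counts in Du145-CbzR. Among the neighbours, HMGN5 was 2.84-fold in Du145-CbzR and at 0.0369 CPM in Du145-DtxR against 6.09 CPM in Du145-P, and WDR1 was 1.72-fold in Du145-DtxR and lower in Du145-CbzR (169.7 CPM against 231.5 CPM in Du145-P). PRIMA1 was 5.29-fold in Du145-CbzR and at 0 in Du145-DtxR, TXN2 2.12-fold in Du145-DtxR, SGPP2 1.68-fold in Du145-DtxR and GNAI1 2.96-fold in Du145-CbzR, each of them lower in the other line. With 2 libraries per line, such an opposite order has no test of its own here.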

How the results depend on the processing

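With no limit on the fold change, 11486 genes were called in Du145-DtxR, 9243 in Du145-CbzR and 4189 with siBRPF1, against 3713, 2117 and 601 with the limit, and with a mean of at least 1 CPM 1383 were called in Du145-CbzR. Leaving out 1 library at a time gave 3490 to 3811, 1875 to 2162 and 484 to 686 calls. The fold change of ZNF518B with siBRPF1 was near 0 throughout and turned sign without siControl replicate 1 (-0.05), siControl replicate 2 (-0.11), siBRPF1 replicate 1 (-0.01) and siBRPF1 replicate 3 (-0.08). Its range was -0.11 to 0.24 and it passed no threshold. With at least 5 CPM in Du145-P, 12 genes were at 0 in Du145-DtxR and 5 in Du145-CbzR. With 1 library left out, 62 to 103 and 31 to 55 genes were at 0, since a 0 is then asked of 1 library. All 5 silenced genes met the rule under these alternatives. Their choice for 0 counts and their parental levels fixed this in advance, so it adds no support. Replicate number as a block gave 3661, 2046 and 627 calls and 0.02 for ZNF518B. Same-numbered libraries correlated at -0.009 to 0.097 in the resistance and 0.065 to 0.423 in the siRNA experiment, so the numbers were not taken as pairs. Of 42 calls of list genes and neighbours, 38 were not lost in any alternative that tested them and none changed direction. The calls lost were those of SH3BGR and CHRM4 in Du145-DtxR and of SHC3 and GADD45G in Du145-CbzR. Depth limits the low genes, for which a 0 bounds the fold only loosely.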

Other observations

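The genes at 0 in Du145-DtxR were described by chromosome after their values were seen. Of the 63, 13 (20.6%) lie on chromosome 19, which holds 7.04% of the genes of at least 1 CPM in Du145-P, and 9 of these 13 carry ZNF symbols (ZNF577, ZNF613, ZNF816, ZNF471, ZNF429, ZNF347, ZNF649, ZNF888 and ZNF826P). In Du145-CbzR 5 of 31 lie on chromosome 19, with ZNF816, ZNF677 and ZNF826P among them, whereas ZNF518B lies on chromosome 4. Of the 213 ZNF genes of chromosome 19 that were expressed in Du145-P, 31 were called lower and 0 higher in Du145-DtxR, and 19 lower and 5 higher in Du145-CbzR. Over all tested genes 13.8% were lower and 6.62% higher (Du145-DtxR) or 7.88% and 3.74% (Du145-CbzR). The shares called lower were thus near those of all genes, and the share called higher in Du145-DtxR was below that of all genes. The sets are not alike, since the 213 were limited to genes of at least 1 CPM in Du145-P and the tested genes were not. For 0 counts the sets can be matched. In Du145-DtxR 9 of the 213 were at 0, against 63 of the 15020 genes of at least 1 CPM in Du145-P (0.419%). In Du145-CbzR 3 of the 213 were at 0, against 31 of the 15020 (0.206%). The median log2 fold changes of the 213 were -0.24 and 0.07. No test was run on this pattern, and genes of this family share similar sequences, so their counts are uncertain.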
